A study of Mus musculus with 30 samples.

Results

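The genes described here build the MHC class I antigen presentation machinery in the back skin of mice that lack the chemokine receptor D6 and of wild type (WT) mice. They are B2m, H2-K1, H2-D1, Tap1, Tap2, Tapbp, Psmb8, Psmb9, Psmb10 and Nlrc5, and every probe set whose gene symbol entry holds 1 of these names was taken. That gave 10 genes of the 22121 symbols on the arrays, on 32 of the 45037 probe sets. D6 is an atypical receptor that binds inflammatory CC chemokines and removes them, and the study asked how skin without it differs from WT skin at each time after irritation with the phorbol ester TPA. Female mice, 8 to 12 weeks old and of strain 129–C57BL/6, had their shaved backs painted 3 times with 50 μM TPA in acetone, 24 hours apart, and whole skin of WT and of D6-deficient mice was collected 1, 2, 4 or 6 days afterwards. The controls of each genotype stand as day 0, and they are titled untreated but described as painted with acetone alone. There were thus 10 groups, one for each genotype on each day, of 3 mice each, with 1 Affymetrix array a mouse and 30 arrays in all. The deletion is carried by the whole mouse, and whole skin mixes epidermis, dermis and infiltrating cells, so that more cells of a type and more RNA in each cell cannot be told apart.

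Class I molecules are made of a polymorphic heavy chain, here H2-K1 or H2-D1, and the invariant light chain B2m, and they show peptides from inside the cell to CD8 T cells. The peptides are cut by the proteasome, whose immunosubunits Psmb8, Psmb9 and Psmb10 take the places of constitutive catalytic subunits. They are then pumped into the endoplasmic reticulum by the Tap1 and Tap2 transporter and loaded with the help of tapasin, the product of Tapbp. Nlrc5 is the transactivator of class I promoters, and interferons induce most of these genes. Keratinocytes carry class I constitutively, as nearly all nucleated cells do.

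Values are log2 intensities. Arrays had medians between 5.64 and 5.80, and the median SD among the arrays of a group was 0.153. On 1 of the 3 probe sets of the D6 gene, Ccbp2, the 15 D6-deficient arrays lay between 3.30 and 3.86 and the 15 WT arrays between 4.15 and 5.76, whereas on its brightest probe set the genotypes overlapped. Of the 4 keratinocyte markers checked against the labelled tissue, the summed level lay between 13.52 and 15.77 over all arrays. Spiked hybridization controls split the arrays into a brighter set of 17 and a dimmer set of 13, and D6-deficient day 6 fell wholly in the brighter set. A probe set passed the test at a Benjamini-Hochberg adjusted p under 0.05 in limma, fitted to all arrays. Some counts of members, and of genes of other lists, at an unadjusted p under 0.05 are also given. The share of all probe sets at that unadjusted level was not computed, so these counts have no background beside them. Of the 32 probe sets of the members, 30 were bright enough to be tested, and 2 dim probe sets of Tap1 were not. For each gene the brightest probe set that names that gene alone is quoted, and several probe sets of a gene read the same RNA and are not independent. H2-K1 and H2-D1 are close relatives, and 5 probe sets name several genes, so that their signals cannot be fully told apart.

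In D6-deficient skin members of the machinery were higher than day 0 at days 2 and 4, and they came down again between day 4 and day 6. In WT skin the share that was higher at day 4 lay near that of all probe sets and is no result about the members. In WT skin 5 of the 30 probe sets were higher than at day 0 at day 4, and in D6-deficient skin 11 on day 2 and 11 on day 4, with none lower. Of all tested probe sets 39.1% passed in WT skin at day 4, while in D6-deficient skin 38.1% passed on day 2 and 41.1% on day 4, so that the share of members that passed, 16.7%, 36.7% and 36.7%, was not above that of all probe sets. By direction, 17.3% of all tested probe sets were higher in WT skin at day 4, against 16.7% of the members. In D6-deficient skin 17.5% of all were higher on day 2 and 18.8% on day 4, against 36.7% of the members on either day. The median difference of the 30 probe sets was 0.13 in WT skin at day 4, and 0.23 and 0.33 in D6-deficient skin at days 2 and 4. For all tested probe sets the medians on these occasions were 0.01, -0.01 and 0.01.

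At the other times few members passed. At day 1, 1 probe set was higher and 1 lower in WT skin, where 24% of all probe sets passed, and 3 were higher and 2 lower in D6-deficient skin, where 36.3% passed. At day 2 in WT skin 1 was higher, against 26.1%. At day 6 none passed in WT skin, where 2 had an unadjusted p under 0.05 and 22.1% of all probe sets passed, and 1 was lower in D6-deficient skin, against 31.7%. The counts in D6-deficient skin leaned on single arrays. Without D6-deficient day 0 replicate 1 they were 5 at day 2 and 6 at day 4, and without replicate 3 of that group 7 at day 2. Without D6-deficient day 2 replicate 1 the count at day 2 was 7. Without WT day 4 replicate 1 the WT count at day 4 was 3.

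**Figure D1:**
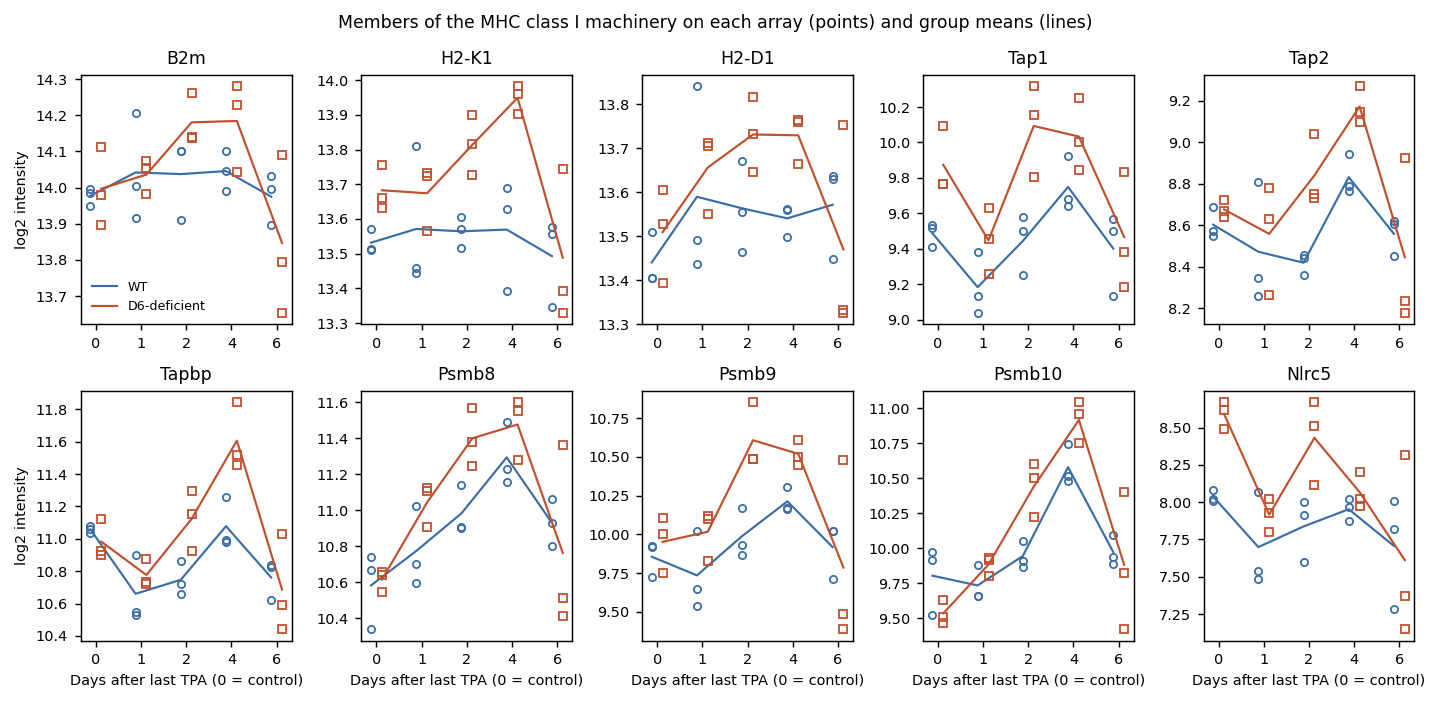
Log2 intensity of the quoted probe set of each of the 10 genes on every array (open points) by days after the last TPA application (evenly spaced), with lines through the group means of WT (circles, blue) and D6-deficient skin (squares, red), on a separate vertical scale for each gene. In 6 of the 10 genes the highest mean is that of D6-deficient day 4, in 3 that of D6-deficient day 2, and in Nlrc5 that of D6-deficient day 0.

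All 3 immunosubunits rose in D6-deficient skin at days 2 and 4. Psmb10, which replaces Psmb7, read 9.51, 9.63 and 9.47 on the D6-deficient day 0 arrays, 10.50, 10.22 and 10.60 at day 2, and 10.75, 11.04 and 10.96 at day 4. In WT skin it read 9.52, 9.92 and 9.97 at day 0 and 10.74, 10.48 and 10.52 at day 4. In both genotypes every day 4 array lay above every day 0 array. The rise at day 4 was 1.38 in D6-deficient skin (2.60-fold, SE 0.17, adjusted p = 4.05e-07) and 0.78 in WT skin (1.71-fold, SE 0.17, adjusted p = 0.000611), and in D6-deficient skin it was already 0.90 at day 2 (SE 0.17, adjusted p = 0.000127). In WT skin the difference at day 2 was 0.14, with a 95% interval from -0.20 to 0.48. The summed leukocyte markers lay between 13.04 and 13.37 on the D6-deficient arrays of day 0, between 13.98 and 14.17 on day 2 and between 14.08 and 14.11 on day 4, and their part in the rise was not tested. Of the 10 quoted probe sets that of Psmb10 had the widest span among its group means, 1.38.

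Psmb8, which replaces Psmb5, read 10.54, 10.64 and 10.66 on the D6-deficient arrays of day 0, 11.38, 11.25 and 11.57 on those of day 2, and 11.28, 11.55 and 11.60 on those of day 4. On the WT arrays it read 10.34, 10.67 and 10.74 at day 0 and 11.49, 11.16 and 11.23 at day 4. Here too the day 4 arrays of each genotype were all above those of day 0. It rose by 0.78 at day 2 (adjusted p = 0.00108) and 0.86 at day 4 (adjusted p = 0.000373) in D6-deficient skin, and by 0.71 at day 4 in WT skin (adjusted p = 0.00255), each with an SE of 0.18. Psmb9, which replaces Psmb6, read between 9.75 and 10.10 on day 0 in D6-deficient skin, then 10.49, 10.48 and 10.85 on day 2, then 10.50, 10.45 and 10.61 on day 4. The day 2 and day 4 arrays were above all of day 0, with rises of 0.66 (SE 0.19, adjusted p = 0.00928) and 0.57 (SE 0.19, adjusted p = 0.0211). In WT skin Psmb9 did not pass at day 4, where the difference was 0.36 with an interval from -0.04 to 0.76. The calls of Psmb9 rested on single arrays. Without D6-deficient day 0 replicate 1 its adjusted p was 0.0522 at day 2 and 0.0971 at day 4, without day 2 replicate 3 it was 0.0588 at day 2, and without day 4 replicate 3 it was 0.0689 at day 4.

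The subunits that the immunosubunits replace were measured beside them. Of Psmb5, Psmb6 and Psmb7, 2 were higher at day 4 in WT skin, Psmb5 by 0.45 and Psmb6 by 0.39, and the same 2 in D6-deficient skin, by 0.41 and 0.28. Psmb7 differed by 0.15 and 0.06 and did not pass. Of the 11 other core subunits tested, 7 rose and none fell at day 4 in each genotype, with medians of 0.37 in WT and 0.31 in D6-deficient skin. Of all tested probe sets 39.1% passed at day 4 in WT and 41.1% in D6-deficient skin, with 17.3% and 18.8% higher. Between genotypes at day 2 none of these catalytic and other core subunits passed in limma, 0 had an unadjusted p under 0.05, and their differences ran from -0.16 to 0.13. Of the 7 activators and assembly factors of the proteasome, 5 rose and 1 fell in WT skin at day 4, and 4 rose and 1 fell in D6-deficient skin. Psme1, of the activator that interferon gamma induces, rose by 0.41 and 0.47, and Pomp, the assembly chaperone, by 0.45 and 0.51, whereas Psme4 fell by 0.26 and 0.42.

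**Figure D2:**
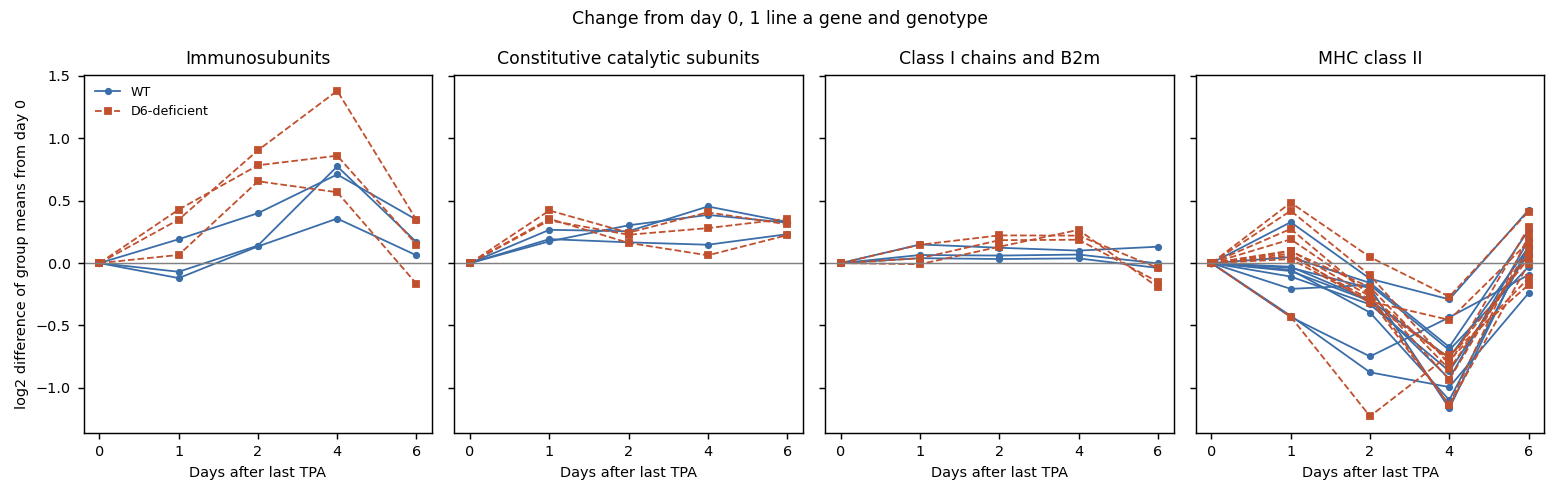
Log2 difference of each group mean from day 0 of its genotype by days after the last TPA application (evenly spaced), with 1 line a gene for WT (solid, circles) and D6-deficient skin (dashed, squares). The immunosubunits reach up to 1.38 at day 4, the constitutive catalytic subunits up to 0.45, the class I chains and B2m up to 0.27, and the MHC class II genes lie below 0 at day 4.

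Tap2 of the transporter and tapasin were higher than day 0 in D6-deficient skin at day 4. Tap2 read 8.67, 8.64 and 8.72 on the D6-deficient day 0 arrays, against 9.27, 9.10 and 9.15 at day 4, a rise of 0.50 (SE 0.16, adjusted p = 0.0144) with no overlap. Without D6-deficient day 4 replicate 1 its adjusted p was 0.0510. In WT skin at day 4 Tap2 differed by 0.23, with an interval from -0.10 to 0.56. Tapbp read 10.90, 11.12 and 10.93 at day 0 and 11.84, 11.46 and 11.52 at day 4 in D6-deficient skin, where it rose by 0.62 (SE 0.14, adjusted p = 0.000835). In WT skin it did not pass at day 4, at 0.02, and it was 0.40 lower than day 0 at day 1 (adjusted p = 0.0392). Another probe set of Tapbp, dimmer by its mean of 8.62 against 10.95, moved more and earlier. On it Tapbp was 0.98 higher in D6-deficient skin at day 1, 1.16 at day 2 and 1.55 at day 4 (adjusted p = 2.8e-06), and 0.82 higher in WT skin at day 4 (adjusted p = 0.0035). The 2 probe sets of Tapbp thus disagreed in direction at day 1, when the brighter differed by -0.21 in D6-deficient skin and did not pass.

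Tap1 differed from these in that its quoted probe set did not pass above day 0 at any time. In D6-deficient skin it read 9.77, 9.76 and 10.09 on day 0, then 9.26, 9.46 and 9.63 on day 1, then 10.15, 9.81 and 10.32 on day 2. It was thus 0.43 lower at day 1 (SE 0.17, adjusted p = 0.0476) and then rose by 0.65 from day 1 to day 2 (SE 0.17, adjusted p = 0.0126). A dim probe set of Tap1, with a mean of 4.74, was higher than day 0 at day 1 by 0.53, at day 2 by 0.79 and at day 4 by 0.61 in D6-deficient skin, and by 0.68 at day 4 in WT skin. Tap1 and Psmb9 lie head to head on chromosome 17 of the RefSeq annotation of GRCm38.p6, and their promoter windows of 300 bases share 275 bases on opposite strands. Psmb8 and Tap2 are their next neighbours in that cluster. Over the 30 arrays Tap1 and Psmb9 correlated with r = 0.84, which is given as a description.

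The heavy chains and B2m were already among the brightest probe sets and changed little. Their quoted probe sets had higher means than at least 99.6% of all probe sets, with means of 14.03 for B2m, 13.63 for H2-K1 and 13.58 for H2-D1, and the highest value on any array was 14.98. The promoters of these 3 genes are shown because they share an order of short motifs that class I promoters are known for. The stretches come from RefSeq, build GRCm38.p6, and end before the start site. Capitals mark matches on either strand. From the left they are GGGNNTTCC in H2-K1 and H2-D1, a site of the NF-kappaB kind, then GAANNGAAA read from the other strand, which in B2m is GAAANNGAA instead, both of the interferon response kind. Next comes TGACG, a site of the CREB and ATF kind. The last is ATTGG, the CCAAT box read from the other strand.
H2-K1: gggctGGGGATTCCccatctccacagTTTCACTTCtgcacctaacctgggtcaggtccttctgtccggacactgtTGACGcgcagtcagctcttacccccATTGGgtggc
H2-D1: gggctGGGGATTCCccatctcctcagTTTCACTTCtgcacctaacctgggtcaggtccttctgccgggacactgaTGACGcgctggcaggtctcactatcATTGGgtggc
B2m: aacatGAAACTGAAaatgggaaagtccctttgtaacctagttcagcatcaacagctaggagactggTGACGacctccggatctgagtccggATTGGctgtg
They lie at chr17:34000354-34000463 on the minus strand, chr17:35262918-35263027 on the plus strand and chr2:122147543-122147643 on the plus strand. The H2-K1 and H2-D1 stretches are identical at 99 of 110 bases. In all 3, TGACG and ATTGG stand 20 bases apart in the same orientation, a pair that 31 of the 32851 promoter windows in the table hold, or 0.0944%. The count was made only at that spacing, the one these 3 promoters hold, and it tests nothing. It is of windows and not of genes, and it includes the windows of these 3 genes, which overlap for H2-K1. Of all windows 5.82% hold GGGNNTTCC, 7.52% GAANNGAAA and 8.56% GAAANNGAA. TGACG was found in 20.8% of them. ATTGG was found in 37.4%. The windows of Tap1, Psmb9, Psmb8, Psmb10 and Tapbp do not hold the pair, and Tap2 and Nlrc5 were not in the table.

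H2-K1 read 13.66, 13.76 and 13.63 on the D6-deficient day 0 arrays, against 13.96, 13.98 and 13.90 at day 4, a difference of 0.27 (SE 0.11, adjusted p = 0.0568) with no overlap. In WT skin it read 13.51, 13.57 and 13.51 at day 0 and 13.63, 13.69 and 13.39 at day 4, which overlap. B2m differed from day 0 by at most 0.19 in either genotype, and at day 4 in D6-deficient skin its interval ran from -0.02 to 0.40. H2-D1 differed by 0.22 in D6-deficient skin at days 2 and 4, with adjusted p of 0.125 and 0.121, and by 0.12 and 0.10 in WT skin. With each array centred on its median, H2-K1 was 0.34 (adjusted p = 0.0212) and H2-D1 0.29 higher (adjusted p = 0.0491) in D6-deficient skin at day 4. Some further probe sets of H2-K1 and H2-D1 passed, of which 5 were higher in D6-deficient skin at day 2 and 4 at day 4, by 0.34 to 0.58. In all, 18 tested probe sets name H2-K1 or H2-D1, so that most did not pass. Their means ran from 3.93 to 13.63, and the dimmest lay near the lowest tested mean of 3.72, where little can be shown.

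Nlrc5 was lower than day 0 in D6-deficient skin at days 1 and 6. In D6-deficient skin it read 8.62, 8.49 and 8.67 on day 0, then 7.80, 7.93 and 8.02 on day 1, 8.51, 8.12 and 8.67 on day 2, and lastly 8.20, 7.98 and 8.02 on day 4. Every day 1 and day 4 array was below every day 0 array. Nlrc5 fell by 0.68 at day 1 (SE 0.22, adjusted p = 0.0175), and it differed by -0.16 at day 2 and by -0.53 at day 4 (adjusted p = 0.0565). At day 6 it read 7.15, 7.37 and 8.32 and was 0.98 lower than day 0 (adjusted p = 0.00138). In WT skin it read 8.01, 8.08 and 8.02 at day 0, and no later day passed, with differences between -0.34 and -0.08. The D6-deficient day 0 group had the highest Nlrc5 of all groups, 0.55 above WT at day 0 with no overlap, a difference that did not pass (SE 0.22, adjusted p = 0.219).

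**Figure D3:**
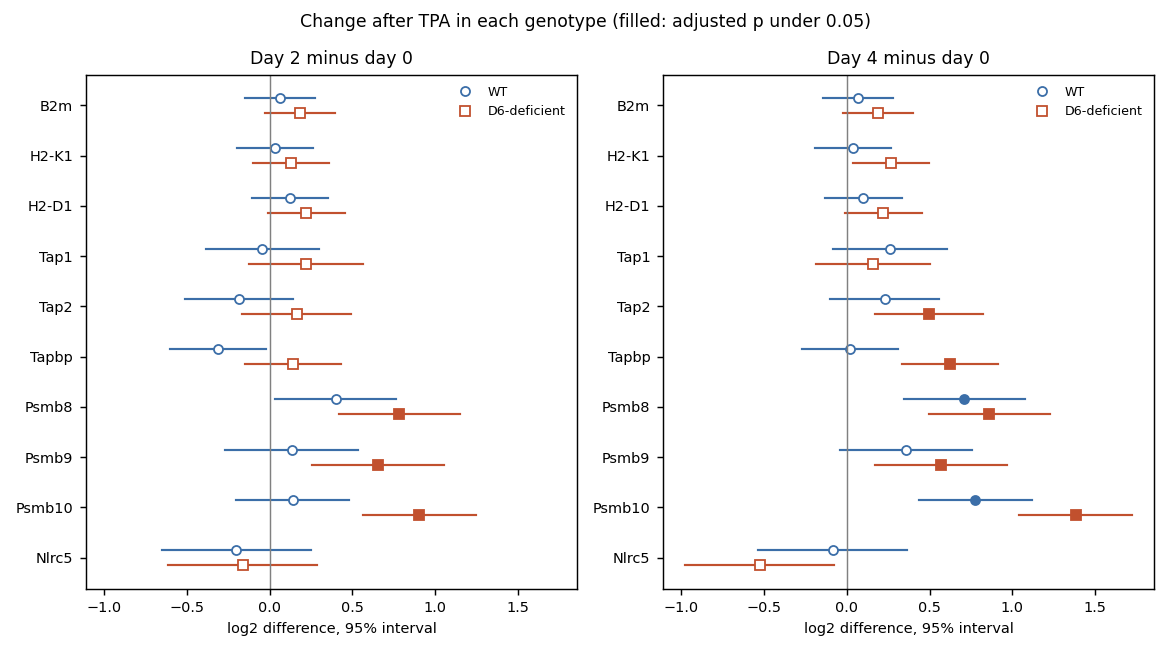
Log2 difference from day 0 at day 2 (left) and day 4 (right) for the quoted probe set of each gene, with 95% intervals, in WT (circles, blue) and D6-deficient skin (squares, red). Filled symbols passed the test, which were 3 genes at day 2 and 5 at day 4 in D6-deficient skin, and 2 at day 4 in WT skin.

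Between the genotypes the members lay higher in D6-deficient skin at day 2, by amounts that mostly did not pass. All 10 quoted probe sets were higher, by 0.14 to 0.65, and in 9 of them, all but H2-D1, the 3 D6-deficient arrays were above the 3 WT arrays. Such a gap was found in 10.4% of all tested probe sets and in 17 of the 30 tested probe sets of the members. Another 2 of the 30 were lower in D6-deficient skin without overlap. The share of all probe sets lower in this way is not given, so these 2 have no background beside them. The summed level of 5 leukocyte markers lay between 13.98 and 14.17 on these D6-deficient arrays and between 13.39 and 13.55 on the WT arrays, and its part in the difference was not tested. Only Tap1 passed among the quoted probe sets. It read 10.15, 9.81 and 10.32 in D6-deficient skin and 9.50, 9.25 and 9.58 in WT skin at day 2, so that the lowest D6-deficient array was above the highest WT array. The difference was 0.65 (1.57-fold, SE 0.17, adjusted p = 0.0214). Among arrays of the brighter control set, 1 D6-deficient and 2 WT, the difference was 0.90. Among those of the dimmer set, 2 D6-deficient and 1 WT, it was 0.48. The call was lost on leaving out WT day 2 replicate 1 (0.68, adjusted p = 0.0566) or replicate 2 (0.55, 0.114), D6-deficient day 2 replicate 1 (0.62, 0.0697) or replicate 3 (0.54, 0.133), and on the mean of the probe sets of Tap1 (0.49, 0.0510) and in a fit to the arrays of the comparison alone (adjusted p = 0.0567). Tap1 was also 0.39 higher at day 0 in D6-deficient skin, without passing (adjusted p = 0.276).

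Psmb9 was next, at 0.62 (interval 0.22 to 1.02, adjusted p = 0.0732), followed by Nlrc5 at 0.59 (0.14 to 1.04, 0.143), Psmb10 at 0.49 (0.15 to 0.84, 0.0989) and Tap2 at 0.42 (0.09 to 0.75, 0.158). At day 0 Nlrc5 was already higher in D6-deficient skin, with means of 8.59 against 8.04, and so was H2-K1, with 13.68 against 13.53. Psmb10 and Tapbp were lower at day 0, with 9.54 against 9.81 and 10.98 against 11.06. Fitted with the replicate number as a block, Psmb9 passed (adjusted p = 0.0467), and also in a fit to the arrays of the comparison alone (adjusted p = 0.0480). The median of the 30 probe sets was 0.26, against -0.02 for all tested probe sets. Of the 30, 1 passed above WT, that of Tap1, and 1 below, a dim probe set of H2-D1 (-0.58, adjusted p = 0.0163), where 4.45% of all tested probe sets passed. With any 1 array of the comparison left out, 0 or 1 passed. At day 4 none passed in limma, where 0.513% of all probe sets passed. At an unadjusted p under 0.05 there were 10 of the 30, with no share of all probe sets at that level to set beside them. All 10 quoted probe sets were again higher, by 0.11 to 0.53, most in Tapbp (0.53, interval 0.24 to 0.82, adjusted p = 0.093) and H2-K1 (0.38, interval 0.15 to 0.61, adjusted p = 0.135). None passed at day 0, where 1.57% of all did, at day 1, where 0.0555% did, or at day 6, where 0.125% did. At an unadjusted p under 0.05 in limma there were 3, 0 and 3 members on these days. The methods' t-test with their fold threshold called 0 members in any comparison.

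The test of whether the response to TPA differed between genotypes, the change from day 0 in D6-deficient skin minus that in WT skin, gave no quoted member at any day. At day 2 Psmb10 came nearest, at 0.76 (interval 0.28 to 1.25, adjusted p = 0.0569). With the lowest 40% of probe sets left out its adjusted p was 0.0460, and with a trended and robust spread 0.0479. At day 4 Tapbp differed by 0.60 (interval 0.20 to 1.01, adjusted p = 0.184) and Psmb10 by 0.61 (interval 0.12 to 1.09, adjusted p = 0.294). Of the 30 probe sets 1 passed at day 2, below WT, where 5.4% of all passed. None passed at day 1, day 4 or day 6, where 0.0194%, 0.608% and 0.025% of all did. At an unadjusted p under 0.05 in limma there were 0, 4 and 2 members on these days, with no share of all probe sets at that level to set beside them. The probe set that passed is a dim one of H2-D1, with a mean of 3.93 against a lowest tested mean of 3.72. It read 3.54, 3.73 and 3.52 on the WT day 0 arrays, against 4.03, 4.22 and 4.59 on day 2. In D6-deficient skin it read 3.98, 4.02 and 3.93, against 3.97, 3.51 and 3.63. Its change from day 0 was thus 0.96 lower in D6-deficient skin (SE 0.20, adjusted p = 0.00472), whereas for the quoted probe set of H2-D1 the difference was 0.10 (interval -0.23 to 0.43).

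**Figure D4:**
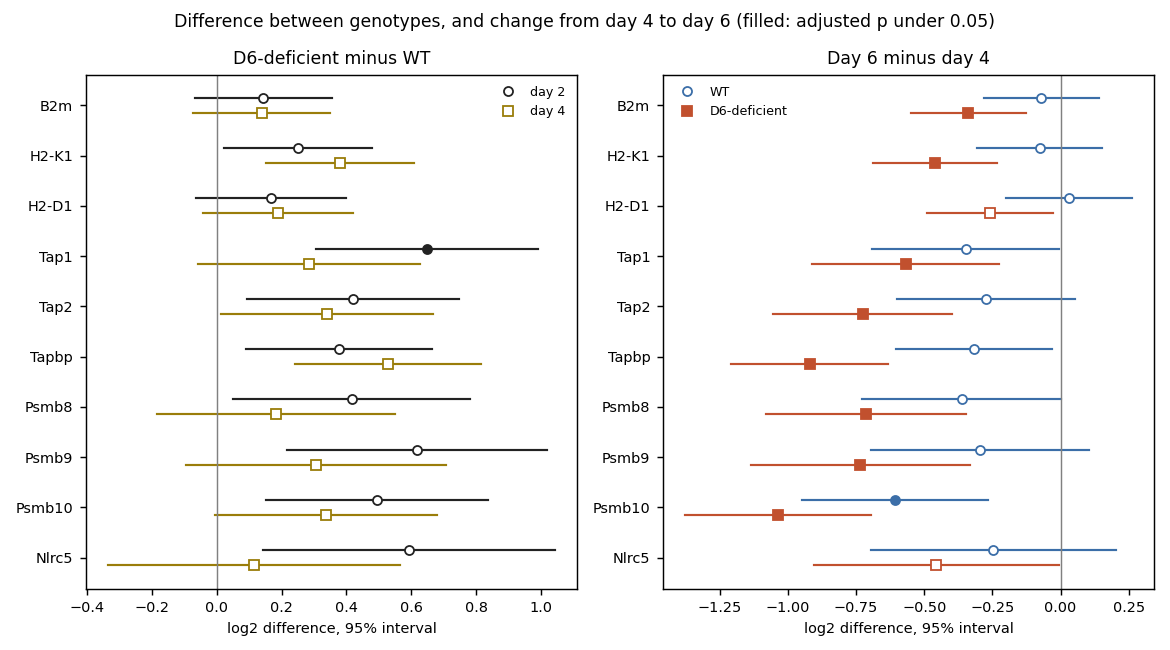
Left, log2 difference of D6-deficient minus WT skin at day 2 (circles) and day 4 (squares) with 95% intervals, of which Tap1 at day 2 passed the test (filled). Right, day 6 minus day 4 in WT (circles, blue) and D6-deficient skin (squares, red), where 1 gene passed in WT skin and 8 in D6-deficient skin.

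From day 4 to day 6 the members came down together in D6-deficient skin. Of the 30 probe sets 19 were lower and none higher, and 8 of the 10 quoted probe sets passed, whereas 31.4% of all probe sets passed and 14.5% were lower. Psmb10 fell by 1.03 (SE 0.17, adjusted p = 3.64e-05), Tapbp by 0.92 (SE 0.14, adjusted p = 1.82e-05), Psmb9 by 0.73, Tap2 by 0.73 and Psmb8 by 0.71. Tap1 fell by 0.57, H2-K1 by 0.46 and B2m by 0.34, and H2-D1 and Nlrc5 did not pass, at -0.26 and -0.46. The day 6 arrays were far apart. On replicate 3 all 10 genes were higher than on the other arrays of the group, by 0.30 to 0.99 above the nearest, and Psmb9 read 9.39, 9.49 and 10.48. Without replicate 3, 24 probe sets were lower than at day 4 and 11 passed against day 0, where 1 passed with it. Without replicate 2 or replicate 1 of that group 10 and 12 passed below day 4, and single calls were lost, among them B2m (adjusted p = 0.0528 and 0.102). A fit to the arrays of the comparison alone gave 4. In WT skin 1 of the 30 was lower at day 6 than at day 4, Psmb10 by 0.61 (adjusted p = 0.00938), where 22.1% of all passed. The difference between these declines was not tested.

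The other steps between days moved few members. From day 1 to day 2 none passed in WT skin, where 1.2% of all passed and 0 members had an unadjusted p under 0.05, and 3 rose and 1 fell in D6-deficient skin, against 10.4%. From day 2 to day 4 Psmb10 rose in WT skin by 0.63 (adjusted p = 0.00981) as the 1 member probe set to pass, against 14.5% of all, and Tapbp rose in D6-deficient skin by 0.48 (adjusted p = 0.018), against 16.3%.

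Over the 30 arrays the 45 pairs of quoted probe sets correlated with r from 0.21 (Psmb10 and Nlrc5) to 0.91 (Psmb8 and Psmb10), with a median of 0.74. After each group mean was taken away the pairs ran from 0.45 to 0.93, with a median of 0.77. The group that spread most in the mean of the 10 genes was D6-deficient day 6, where replicate 3 stood apart, and without it, a setting added after the data were seen, the pairs ran from 0.19 to 0.91 with a median of 0.61. Pairs share arrays and scaling, and these values are descriptive. The mean of the 10 genes, each centred on its own mean, was 0.41 ± 0.02 (SD, n = 3) in D6-deficient skin at day 4, 0.31 ± 0.15 at day 2 and -0.21 ± 0.39 at day 6. In WT skin it was 0.13 ± 0.09 at day 4 and between -0.21 and -0.10 at the other times. The D6-deficient day 4 arrays were all above the highest WT array, which read 0.23 and was at day 4.

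**Figure D5:**
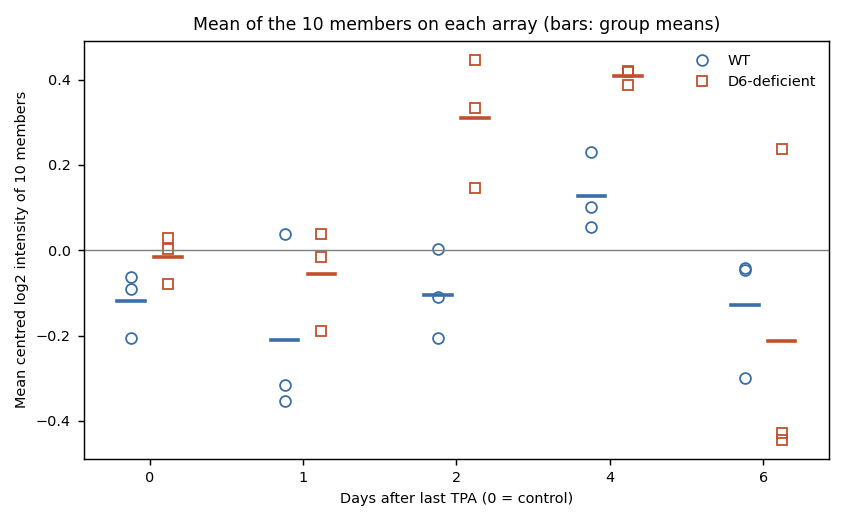
Mean over the 10 genes of the log2 intensity centred on each gene's mean over all arrays, for each array (open points) and group (bars), by days after TPA in WT (circles, blue) and D6-deficient skin (squares, red). D6-deficient day 4 arrays lie between 0.39 and 0.42, and of the D6-deficient day 6 arrays 2 lie at -0.44 and -0.43 and 1 at 0.24.

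The genes outside the machinery whose course over the 30 arrays was most like this mean included Mpa2l (r = 0.94), a probe set of Gbp10 and Mpa2l (0.92), Irgm2, Iigp1 and Igtp (each 0.91), a probe set of H2-T10, H2-T22 and H2-T9 (0.90), H2-Q8 and Parp9 (each 0.89) and 1600014C10Rik (0.87). Mpa2l and Gbp10 encode guanylate-binding proteins and Irgm2, Iigp1 and Igtp immunity-related GTPases, both families known as interferon-induced. Mpa2l went from a mean of 7.76 in D6-deficient skin at day 0 to 9.83 at day 4 and 6.89 at day 6, and from 7.59 to 8.55 and 7.27 in WT skin. The arrays of a group share their mean, so that no p is given.

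The other class I chains, most of them non-classical, included larger differences between genotypes than any member. Of 15 tested probe sets, all were higher in D6-deficient skin at day 2, and 3 passed, where 4.45% of all tested probe sets passed. The 3 were H2-T24 (2.06, SE 0.35, adjusted p = 0.00064), H2-gs10 (1.18, SE 0.28, adjusted p = 0.0128) and H2-Q8 (1.03, SE 0.23, adjusted p = 0.00755). The probe set of H2-gs10 also names H2-Q6 and LOC68395, and its means at day 0 were already 8.63 in D6-deficient and 8.05 in WT skin. At day 0 those of H2-Q8 were 7.96 and 7.74, and those of H2-T24 6.94 and 7.24. H2-L, the brightest of the list, differed by 0.19 and did not pass. The median over these chains was 0.37, against -0.02 for all tested probe sets. H2-T24 also differed in its change from day 0, by 2.37 (adjusted p = 0.00497), and H2-Q8 was still 1.2 higher at day 4 (adjusted p = 0.012), the only chain of the list to pass there.

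Of 10 chaperones and peptidases of peptide loading and trimming, 7 rose and 1 fell at day 4 in WT skin and 6 rose and 1 fell in D6-deficient skin. Of all tested probe sets 39.1% passed at day 4 in WT and 41.1% in D6-deficient skin, with 17.3% and 18.8% higher. Pdia3, the thiol oxidoreductase of the loading complex, rose by 1.04 and 1.02, and Calr, the chaperone calreticulin, by 0.81 and 0.67. At day 2 the 1 gene of this list to pass between genotypes was Thop1, a cytosolic peptidase that can destroy class I peptides, which was 0.56 lower in D6-deficient skin (adjusted p = 0.0182).

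Between genotypes 4.45% of all tested probe sets passed at day 2. Of the 10 factors of class I promoters given here none passed between genotypes at day 2 in limma, where 2 had an unadjusted p under 0.05 and the median difference was 0.07. Irf1, an interferon-induced activator, differed by 0.41 (interval 0.05 to 0.77), and Creb1 and Atf1, which bind TGACG, differed by -0.17 and 0.08. Of 7 inducing cytokines and receptors tested 2 passed at day 2, Tnf, which was 0.55 higher (adjusted p = 0.0121), and Ifnar1, a chain of the type I interferon receptor, which was 0.42 higher (adjusted p = 0.0233). Ifnar2, the other chain, differed by 0.32 and did not pass, and Ifng was too dim to be tested.

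MHC class II, which presents peptides from outside the cell, was lower at day 4. Of its 10 tested genes 8 fell in WT skin and 9 in D6-deficient skin at day 4, and none rose. Of all tested probe sets 39.1% and 41.1% passed there, both directions together. Cd74, the invariant chain, fell by 0.76 in each, and the chain genes H2-Aa, H2-Ab1 and H2-Eb1 by 0.87, 0.93 and 1.10 in WT and by 0.85, 0.93 and 1.14 in D6-deficient skin. From day 4 to day 6, 9 rose in WT and 10 in D6-deficient skin, where 22.1% and 31.4% of all probe sets passed, both directions together. None passed between genotypes at day 2, where the differences ran from -0.28 to 0.15 and 0 of the 10 had an unadjusted p under 0.05 in limma.

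Leukocyte markers were also higher at these times. Of 5 leukocyte markers 4 were higher than day 0 in D6-deficient skin at day 2 and 4 at day 4, and in WT skin 2 and 3. Of all tested probe sets 38.1% and 41.1% passed in D6-deficient skin on these days, and 26.1% and 39.1% in WT skin. The summed level of the leukocyte markers in WT skin lay between 13.20 and 13.42 at day 0. It lay between 14.06 and 14.32 at day 4, when it overlapped that of D6-deficient skin. At day 2 the D6-deficient arrays were all above the WT arrays, with Itgb2 0.76 and Cd53 0.72 higher. At day 6 the sum was 13.30, 12.90 and 13.64 on the D6-deficient arrays, again highest on replicate 3. Of the 5 T cell markers tested none passed between genotypes at day 2 in limma, with 0 at an unadjusted p under 0.05. Of the 5 macrophage markers 2 passed as higher in D6-deficient skin at day 2, when 4.45% of all tested probe sets passed. The macrophage sum then lay between 14.12 and 14.23, against 13.74 and 13.96 in WT skin. Of the 4 neutrophil markers 2 passed as higher at that time, and all 4 were above day 0 at days 2 and 4 in either genotype. The summed NK cell markers lay between 9.51 and 10.07 on the D6-deficient arrays of day 4 and between 9.18 and 9.27 on the WT arrays. The markers did not move together. Gzmb had a mean of 9.48 in D6-deficient skin, against 8.65 in WT skin, whereas Ncr1 read 5.39 against 5.96 and Klrb1c 5.20 against 5.80. Prf1 read 6.19 against 6.18. No NK cell marker passed between genotypes at that time in limma, with 2 at an unadjusted p under 0.05. Cd207, the langerin of Langerhans cells, differed by -2.38 between D6-deficient and WT skin on day 2 (adjusted p = 0.000414), with WT skin the higher. At day 4, when class II was lower, Cd207 fell by 1.40 from day 0 in WT skin and by 1.15 in D6-deficient skin. The other dendritic cell markers, Itgax and Flt3, did not follow it. Their day 2 means were 6.97 and 6.82 in D6-deficient skin, against 6.51 and 6.71 in WT skin. From day 0 to day 4 Itgax went from 6.00 to 7.21 in WT skin and from 6.54 to 6.99 in D6-deficient skin. Flt3 went from 7.19 to 7.18 and from 7.18 to 7.38. All 3 muscle markers were lower than day 0 on every later day in both genotypes, with medians from -0.90 to -1.78. The keratinocyte sum lay between 15.19 and 15.30 at day 0 and between 13.52 and 14.06 at day 4 in D6-deficient skin. In WT skin it lay between 14.70 and 14.78 and then 14.23 and 14.58. Its markers did not move together. Over these days Krt1 went from a mean of 12.37 to 7.91 in D6-deficient and from 11.66 to 9.14 in WT skin. Krt10 went from 13.85 to 8.34 and from 13.63 to 9.36. Krt14 went from 13.46 to 13.33 and from 12.72 to 13.82, and Krt5 from 12.88 to 11.74 and from 12.18 to 12.40. The part of these shifts in the results on class I genes was not tested.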

How the data were processed

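Total RNA of whole back skin was hybridised to Affymetrix mouse arrays. The authors normalized the arrays by robust multiarray analysis (RMA, named in the submitters' processing notes and methods) and deposited linear intensity values per probe set with gene symbols, which were taken to log2. The labels call the 3 arrays of a group biological replicates. Apart from matching the column of WT day 6 replicate 3 to its sample, a deposited sample sheet was not used. Following the methods, the dimmest 20% of probe sets by mean (9008) were dropped, with 64 control probe sets kept out before, which left 36029 of 45037 to test. Group means over all 30 arrays were fitted with limma 3.58.1 in R 4.3.3 (lmFit, eBayes), with Benjamini-Hochberg adjustment within each of 23 comparisons, after a check on simulated data. All members are named, with the brightest probe set naming 1 gene quoted. At most 4 genes of another list are named, those that differed most between genotypes at day 2 among those that passed, or else the brightest. The members and lists were chosen with earlier results of these data known. Results on 1 gene of these lists are not reported here. The number of arrays limits the precision. Replicate numbers were not used to pair the samples, since every pair of same-numbered arrays correlated over 0.1 in only 1 of 19 comparisons. Promoter sequences came from RefSeq GRCm38.p6 (300-base windows, 8 members matched), and matches are descriptions. The methods' t-test with p under 0.05 and over 3-fold was an alternative, with other centring, filters, spreads and samples.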

Additional observations from a re-analysis of the deposited data

Results flagged for a closer look

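Each result here is a difference between the genotypes in the change from day 0, tested as an interaction in limma with Benjamini-Hochberg adjustment. A dim probe set of H2-D1 differed by -0.96 at day 2 (D6-deficient minus WT, adjusted p = 0.00472). At day 2 the difference was 2.37 for H2-T24 (adjusted p = 0.00497), 0.62 for Ifnar1 (adjusted p = 0.0163) and 0.71 for Ifnar2 (adjusted p = 0.0239). For Thop1 it was -0.97 at day 2 (adjusted p = 0.0036) and -0.86 at day 4 (adjusted p = 0.0430). No quoted probe set of the 10 members is among them.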

How the results depend on the processing

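Counts below are of member probe sets past the test among 30. Without a filter on low values, and with probe sets naming 1 gene alone, no count moved by over 1.5 times. With each array centred on its median the members past the test were 1 in WT skin at day 1 and 3 at day 2, and the median of all probe sets moved by at most 0.07. With the lowest 40% left out they were 1, 0 and 3 in WT skin at days 1, 2 and 4, 3 in D6-deficient skin at day 1, 1 between genotypes at day 2 and 2 from day 2 to day 4 in D6-deficient skin. With a trended and robust spread they were 2 in the change relative to day 0 between genotypes at day 2, and 2 from day 2 to day 4 in D6-deficient skin. With the replicate block they were 2 at day 6 in D6-deficient skin. The correlations of same-numbered arrays ran from -0.29 to 0.38, and whether such arrays share a batch was not tested. Apart from Psmb9 between genotypes at day 2 and Nlrc5 in D6-deficient skin at day 4 (adjusted p = 0.0485) the block changed no call of a quoted gene. With the hybridization-control set as a covariate they were 1 and 2 in WT skin at days 1 and 2, and 2 from day 2 to day 4. In fits to the arrays of a comparison alone they were 1, 2 and 8 in WT skin at days 1, 2 and 4, 0 in D6-deficient skin at day 6, 3 relative to day 0 between genotypes at day 2, 3 from day 2 to day 4 in WT skin, 0 over those days in D6-deficient skin, and 4 from day 4 to day 6 in D6-deficient skin. Over the means of the probe sets of the 10 genes they were 0 in WT skin at days 1 and 2, 2, 6 and 7 in D6-deficient skin at days 1, 2 and 4, 0 between genotypes at day 2 and relative to day 0, 2 from day 2 to day 4 in WT skin, and 2 from day 1 to day 2 and 9 from day 4 to day 6 in D6-deficient skin. A 3-fold minimum added to limma, and the methods' t-test before and after Benjamini-Hochberg adjustment, left 0 members in every comparison.

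With 1 array left out at a time the members past the test ranged in WT skin from 0 to 2 at day 1, 1 to 2 at day 2, 3 to 5 at day 4, 0 to 2 from day 2 to day 4 and 0 to 1 from day 4 to day 6. In D6-deficient skin they ranged from 2 to 4 at day 1, 5 to 12 at day 2, 6 to 13 at day 4, 1 to 11 at day 6, 0 to 2 from day 1 to day 2, 0 to 1 from day 2 to day 4 and 10 to 24 from day 4 to day 6. Between genotypes they ranged from 0 to 1 at day 2 and from 1 to 2 relative to day 0 at day 2. The sign turned for Tapbp in WT skin at day 4 (lowest -0.072, highest 0.067), for H2-K1 there (lowest -0.022, highest 0.13) and for Nlrc5 relative to day 0 at day 2 (-0.079, -0.012 and -0.080, highest 0.20), none of which had passed. The cause of these moves was not tested. Dim probe sets lie near the lowest intensities tested, and signal over background limits what they can show.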
